A study of Mus musculus with 283 samples.

Results

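The lymph nodes that drained subcutaneous tumours of the T cell lymphoma line EL4 were compared with lymph nodes of mice without a tumour. The comparison held 9 of the 283 arrays of the series. It set 5 draining nodes, of mice 13, 14, 15, 17 and 18, against the nodes of tumour-free mice 1 to 4, and the node of tumour-free mouse 5 was left out because it was rich in fat. The controls were thus chosen by the levels of fat genes, and the comparison was marked by Saa3 and Cpa3, selected on their values in it. All mice in it were female and of the strain that the labels call C57Bl6j, and no genetic change or drug treatment is labelled. EL4 cells had been injected under the skin of the back of mice from the strain the line came from, and the mice were killed once tumours of a model had reached a set mean volume. The ages of the mice are not given. From each EL4 mouse the tumour, 1 draining node and the spleen were measured, so that 5 EL4 tumours, 5 EL4 spleens and 1 culture of the line could be set beside the nodes. The 5 spleens of the tumour-free females, the 5 nodes of tumour-free males of the same strain, and 37 nodes draining B16, LL2, MC38 or TC1 tumours in females of that strain were used where stated. Levels are log2 expression values from exon arrays. A difference of 1 on that scale is a doubling, and values of different genes are not compared with each other, since probe sets differ in brightness.

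A draining lymph node receives the lymph of a tissue region, with the cells and proteins it carries. Naive T and B cells enter it from the blood, meet antigen brought by dendritic cells, and divide if they recognise it. EL4 is a line of lymphoma cells of thymic origin, so its cells are T cells by lineage and can reach nodes through lymph. A node that holds such cells shows the transcripts of the line on top of those of its own T cells, B cells, dendritic cells and stroma. Genes that normal node cells lack are therefore the informative ones, and general T cell genes are not. In a measurement of whole tissue, a change in the number of cells of a type cannot be told apart from a change in the RNA each of them holds.

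Before the results, each array was checked against its labelled organ. A score was made from 15 genes higher in spleens and 15 genes higher in nodes, chosen over 16 other groups of paired nodes and spleens. It was at least 0.73 in 87 other spleens and at most -0.29 in 82 other nodes, with 1 spleen of another strain apart. The genes were chosen on these nodes and most of these spleens, so that separation was largely built in. The EL4 and tumour-free C57Bl6j female arrays took no part in the choice. The 5 EL4 nodes lay between -1.36 and -0.84. Among the tumour-free females, nodes 1, 3 and 5 scored -0.64, -1.73 and -0.36, but the arrays labelled node 2 and node 4 scored 2.71 and 2.74, in the range of spleens. The arrays labelled spleen 1 and spleen 3 of the same group scored -1.58 and -1.34, in the range of nodes. The organs of these 4 arrays therefore went against their labels. The labels were kept. The counts, list medians and changes of named genes against the tumour-free females are therefore also given with nodes 1 and 3 alone, and the organ difference without the 4 arrays. Genes of fat were the reason to leave out animal 5: the mean level of 12 adipocyte genes was 8.37 in node 5, against 4.75 to 6.25 in nodes 1 to 4. In the EL4 nodes it was 4.55 to 5.46. Adiponectin (Adipoq), a hormone of fat cells, was at 9.59 in node 5 and at 6.76, 4.90, 8.28 and 4.20 in nodes 1 to 4. The labels also number the samples. The EL4 nodes carry numbers from 176 to 188 and the tumour-free female nodes from 232 to 240, so whatever follows these numbers cannot be told apart from the presence of a tumour.

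**Figure D1:**
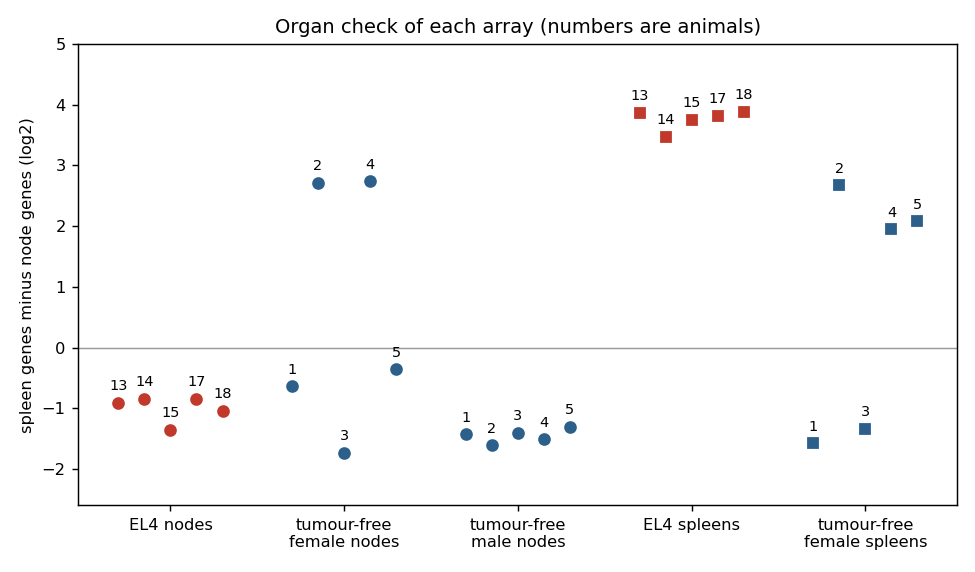
Organ score of each array, as the mean log2 level of 15 spleen genes minus that of 15 node genes; circles are arrays labelled node, squares arrays labelled spleen, red EL4 mice, blue tumour-free mice, and the numbers are the animals. The arrays labelled tumour-free female nodes 2 and 4 (2.71 and 2.74) lie with the spleens, and those labelled tumour-free female spleens 1 and 3 (-1.58 and -1.34) lie with the nodes.

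Of 11981 genes tested, 139 (1.16%) were higher and 22 (0.184%) were lower in the EL4 nodes than in tumour-free nodes 1 to 4. A gene was called at a limma adjusted p under 0.05 together with a change of at least 1 in either direction. The median change over all tested genes was 0.05. The spread was estimated over all nodes, and a fit to the compared groups alone called 144 higher and 15 lower. With tumour-free nodes 1 and 3 as the only controls, 143 of 11719 genes (1.22%) were higher, 101 of them the same genes, but only 3 (0.0256%) were lower, and 1 of these was the same gene. With the male tumour-free nodes as controls, 154 of 12076 genes (1.28%) were higher and 25 (0.207%) were lower, of which 97 and 4 were the same genes. Of the 139 higher genes 80 kept their call with both of these control sets, and of the 22 lower genes 1 did. Nodes 1 and 3 are among the same 4 controls, and the EL4 nodes are shared throughout, so these counts are descriptions. EL4 node 14 weighed most: without it 78 genes were called in either direction in place of 161, and without EL4 node 17 the count was 229.

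Genes of the EL4 line were looked for in the nodes. EL4 line genes were chosen without using the EL4 nodes or the tumour-free female nodes, as genes whose level in EL4 tumours and in the EL4 culture was at least 3 above the mean of 15 tumour-free nodes of other strains or sex, and whose mean in EL4 tumours was at least 2 above every other tumour family. Only 6 genes met this rule. Of these, 5 could be tested and 3 were called higher in the nodes (Timd2, Slc6a13 and St6gal2), and the same 3 genes were called with tumour-free nodes 1 and 3 alone. Over all tested genes 1.16% were called higher, and 1.22% with nodes 1 and 3. The median change of the 5 tested line genes was 2.07. It leaves out Dntt, which was too low to be tested (mean 3.67 in EL4 nodes and 3.75 in controls). Timd2 and St6gal2 passed the filter on level only through the EL4 nodes. The median thus describes genes kept in part for their level in these nodes. Whether host cells or lymphoma cells of the node made these transcripts was not tested.

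Timd2 encodes a receptor of the T cell immunoglobulin and mucin family that takes up ferritin (chr11:46668960-46707107, GRCm38.p6). Its level was 6.66, 7.80, 6.61, 4.80 and 5.64 in EL4 nodes 13, 14, 15, 17 and 18, and 3.48, 3.70, 3.54 and 4.15 in tumour-free nodes 1 to 4. Every EL4 node was above every control, as for 6.44% of all tested genes, with node 14 highest and node 17 closest to the controls. The change was 2.59 ± 0.32 (SE, limma adjusted p = 1.12e-08), and 2.80 against nodes 1 and 3. In the tumours the level was between 8.41 and 9.01 and in culture 8.90, so the nodes lay between the tumour-free nodes and the tumours.

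Slc6a13 encodes a transporter of the amino acid transmitter GABA (chr6:121300288-121337721). It stood at 6.67, 7.77, 7.09, 5.97 and 6.71 in EL4 nodes 13, 14, 15, 17 and 18, and at 4.63, 4.53, 5.10 and 4.84 in tumour-free nodes 1 to 4. The groups did not overlap, as for 6.44% of all tested genes. All 5 EL4 nodes were above the highest of the 87 other nodes of the series, which was at 5.35. The change was 2.07 ± 0.19 (limma adjusted p = 8.8e-14), and 1.98 against nodes 1 and 3. St6gal2, a sialyltransferase of the Golgi, was at 4.41, 5.64, 4.71, 3.74 and 4.33 in the EL4 nodes against 3.16 to 3.71 in the controls, a change of 1.09 ± 0.24 (limma adjusted p = 0.00293), and of 1.06 against nodes 1 and 3. Node 14 was again highest and node 17 only just above the controls.

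The other 3 line genes were not called. Rgs13, a regulator of G protein signalling known from germinal centre B cells and mast cells, was at 6.06, 7.01, 6.12, 4.45 and 5.18 in the EL4 nodes and at 1.83, 4.86, 3.22 and 4.50 in the controls, so the groups overlapped (2.16 ± 0.88, limma adjusted p = 0.171, and 3.24 with nodes 1 and 3, adjusted p = 0.104). It reached 8.31 in a node of another model, above every EL4 node. Fggy, a carbohydrate kinase, was between 5.31 and 7.10 in the EL4 nodes and between 5.10 and 5.39 in the controls (0.93 ± 0.31, limma adjusted p = 0.0688), with 0.85 against nodes 1 and 3, and it was called against male nodes (1.10). Dntt, the terminal transferase of immature lymphocytes, was at 5.80 to 8.36 in EL4 tumours and 7.47 in culture but at 3.48 to 4.02 in the EL4 nodes. It lay at 3.32 to 4.34 in the controls, and it was too low in both groups to be tested there. With a margin of 1 over other tumours the rule adds Mpp4, a scaffold protein known from photoreceptors, and Cdk6, a kinase that drives entry into S phase. Mpp4 was at 4.84 to 5.95 in the EL4 nodes and at 3.27 to 4.14 in the controls (1.86 ± 0.20, limma adjusted p = 1.2e-10), and all 5 EL4 nodes exceeded the highest other node. It passed the filter on level only through the EL4 nodes. Cdk6 rose by 1.29 ± 0.32 (limma adjusted p = 0.00777). Against nodes 1 and 3 Mpp4 rose by 1.62 and Cdk6 by 1.52.

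**Figure D2:**
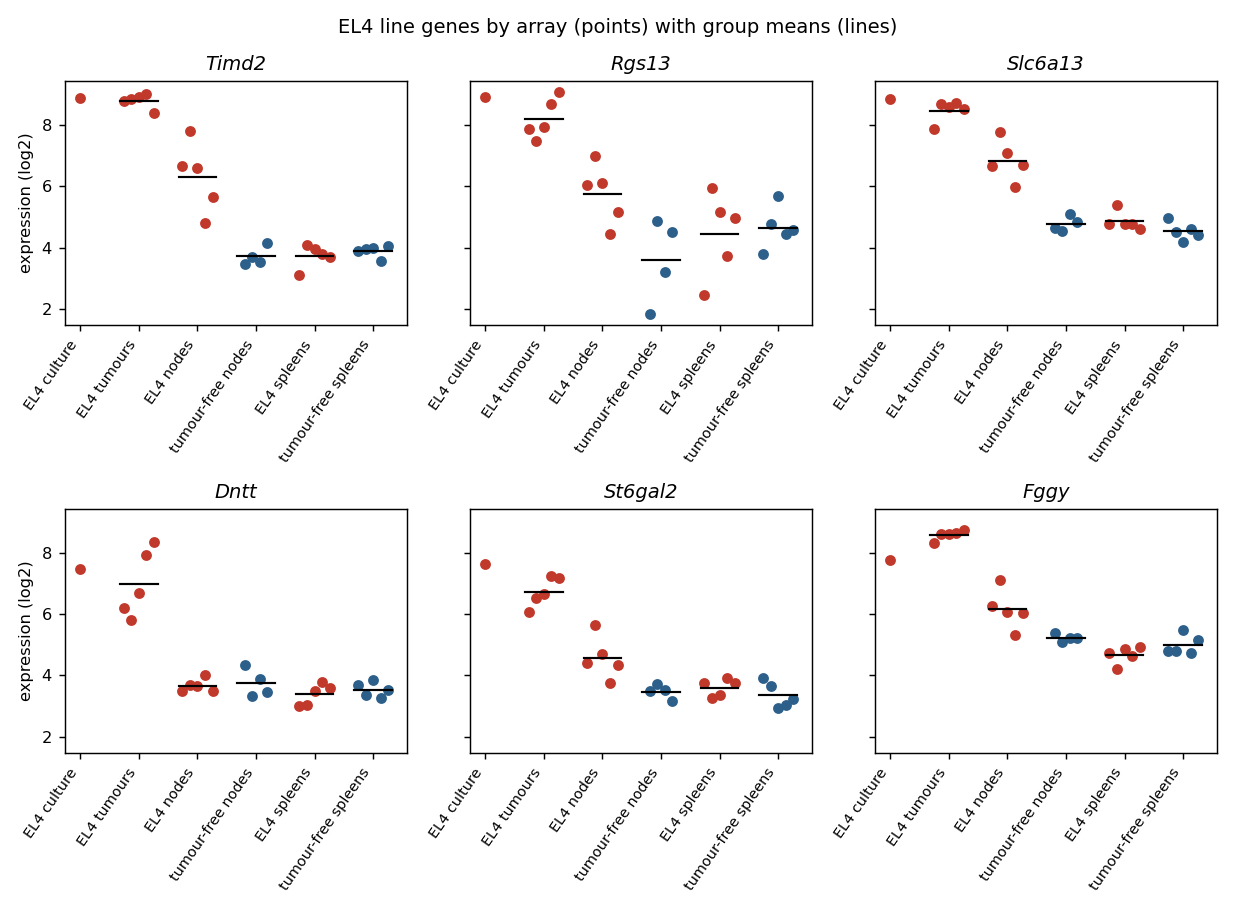
Log2 levels of the 6 EL4 line genes on each array (points) with group means (lines) in the EL4 culture, EL4 tumours, EL4 nodes, tumour-free female nodes 1 to 4, EL4 spleens and tumour-free female spleens, red for EL4 and blue for tumour-free. Timd2, Slc6a13 and St6gal2 lie in the EL4 nodes between tumours and controls, Dntt lies at control level in the nodes, and in EL4 spleens the line genes lie with the tumour-free spleens.

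The rise of the line genes over the controls was also expressed as a percent of the rise in the tumour of the same animal, after the log2 values were turned back to linear ones. The median over the 6 genes was 19.4% in node 13, 47.1% in node 14, 17.5% in node 15, 2.01% in node 17 and 7.05% in node 18. The nodes thus differed widely, with a mean of 18.6% ± 17.5 (SD, n = 5). With nodes 1 and 3 as controls the medians were 2.35% in node 17 and 6.72% in node 18, and the others were the same. Single genes spread around these medians: in node 14 they ranged from -1.17% for Dntt to 70.4% for Rgs13. These percentages describe array values, which compress weak signals, and are no counts of cells. In the spleens of the same mice the median lay between -1.60% and 0.338% of the tumour level. Over the group means, single line genes ranged from -1.74% to 2.02% in EL4 spleens.

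**Figure D3:**
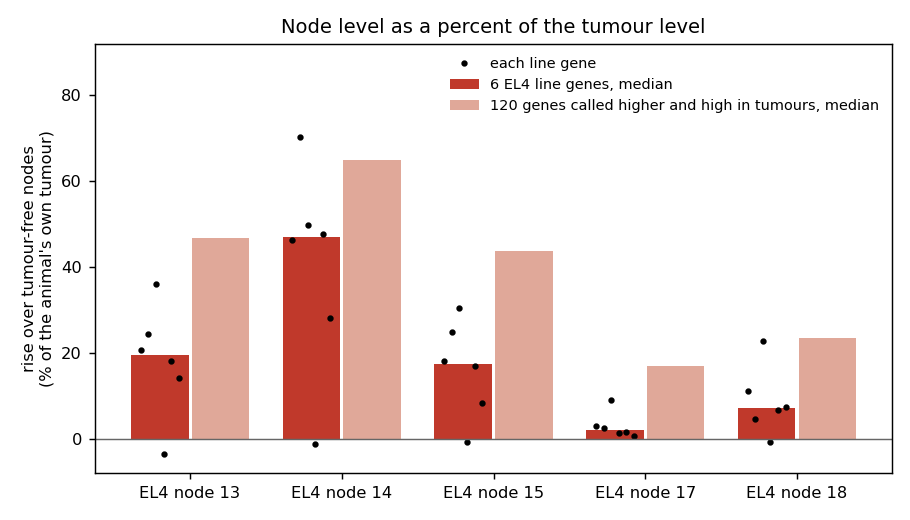
Rise of expression over tumour-free nodes 1 to 4 in each EL4 node as a percent of the rise in the tumour of the same mouse, on the linear scale; dark bars are the median of the 6 line genes, points the single genes, and light bars the median of the 120 called genes that were also high in EL4 tumours. Node 14 is highest (47.1% and 65.0%) and node 17 lowest (2.01% and 17.0%) by either measure.

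Most of the wider set of higher genes were also high in the tumours. Of the 139 genes called higher, 120 (86.3%) were at least 1 higher in EL4 tumours than in the tumour-free nodes of other strains or sex, against 7.96% of all tested genes. In the EL4 culture 120 (86.3%) were that much higher, against 27.6% of all tested genes. In tumours and culture alike 115 (82.7%) were higher, against 7.38% of all tested genes. For 127 of the 139 genes the mean of the EL4 nodes lay between the means of the tumour-free nodes and of the tumours. These genes were picked for a node mean above the same controls, so a mean in between was largely built in. No share over all tested genes is given for that count. Node 14 held the highest of the 5 EL4 node values for 112 of the 139 genes (80.6%), where over all tested genes it did so for 26.3%. Node 17 held the lowest value for 80 of them (57.6%), against 29.3% over all tested genes. This is the order of the nodes seen in the line genes. The genes were called on these nodes, so the counts and percentages are descriptions.

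Only 14 of the 139 genes were raised in neither tumours nor culture. They were picked out after their values were seen. They included Ccl12, Lyve1, Il33, Sfrp2, Rgs5 and Has2, whose changes against tumour-free nodes 1 and 3 were 1.14, 0.43, 0.83, 0.08, -0.27 and 0.54, far under their changes of 2.50, 1.68, 1.32, 1.72, 1.17 and 1.16 with all 4 controls. Ccl12, Lyve1 and Rgs5 are among the node genes of the organ score, and the arrays labelled node 2 and node 4 were low for Lyve1 (4.29 and 3.80, against 6.29 and 6.79 in nodes 1 and 3). Others of the 14 were the interferon-induced genes Zbp1, Ifi27l2a, Rnf213 and Slfn5. Their changes were 1.14, 1.24, 1.03 and 1.18 with all 4 controls and 1.25, 1.42, 0.93 and 0.95 with nodes 1 and 3.

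Saa3 and Cpa3, the genes by which the comparison had been marked, had the largest rises and are given as a description only. Saa3 encodes an acute phase protein made locally by macrophages, fat and epithelium (chr7:46711998-46719615). It was at 8.07, 7.73, 8.51, 6.62 and 7.63 in EL4 nodes 13, 14, 15, 17 and 18 and at 3.47, 3.88, 3.36 and 3.37 in tumour-free nodes 1 to 4, a difference of 4.19, or 4.30 with nodes 1 and 3. The groups were far apart, and Saa3 was higher still in the tumours (9.77 to 11.04). In the EL4 culture it was at 4.61. It was thus high in tumours and nodes and low in the cultured line. Node 15, not node 14, was highest. The 37 nodes of other tumours in females of the strain ranged from 3.11 to 8.65, so the EL4 nodes were not outside that range. The highest of these values was in a B16 node. The highest LL2, MC38 and TC1 nodes were at 5.66, 5.50 and 5.24, below every EL4 node. The difference from the nodes of other tumours, averaged over families, was 3.03. Of the 9 acute phase genes tested, Saa3 alone was called, where 1.16% of all tested genes were called higher. Slpi, an inhibitor of neutrophil elastase, was at 6.98 to 8.12 against 5.41 to 7.28.

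Cpa3 encodes the carboxypeptidase stored in mast cell granules (chr3:20215616-20242209). Its level was 6.34, 7.29, 6.62, 5.52 and 5.78 in the EL4 nodes and 3.39, 3.15, 4.64 and 3.25 in the controls, a difference of 2.70, or 2.29 with nodes 1 and 3. All EL4 nodes were above all controls, as for 6.44% of all tested genes, in the node order of the line genes at either end. Cpa3 was at 9.68 in the EL4 culture, higher than in any of the tumours (4.91 to 8.43). The other 6 mast cell and basophil genes tested were not called. Kit, the receptor for stem cell factor on mast cells, was at 4.77 to 5.06 in the EL4 nodes and at 5.31 to 5.85 in the controls. Gata2, a transcription factor of mast cell precursors, was at 4.34 to 5.00 against 5.03 to 5.84, and the chymase Cma1 at 3.99 to 4.53 against 3.85 to 4.50. Kit and Gata2 were thus lower in every EL4 node than in every control, as for 1.45% of all tested genes. Their changes of -0.62 and -0.74 were under the fold threshold. Against nodes 1 and 3 they were -0.46 (limma adjusted p = 0.324) and -0.50 (limma adjusted p = 0.452).

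The other genes among the 15 largest rises encode cytokines, adhesion molecules, and proteins of metabolism and division. Il17f, a cytokine of the interleukin 17 family made by T cells and innate lymphoid cells, was at 6.27, 6.96, 5.80, 6.07 and 6.49 in the EL4 nodes and at 4.51, 3.90, 4.50 and 3.57 in the controls. The groups were separate, as for 6.44% of all tested genes, and the EL4 nodes narrow in range. The change was 2.20 ± 0.27 (limma adjusted p = 6.05e-09). Its level in tumours (6.02 to 7.26) and culture (6.71) overlapped that of the nodes. Chl1, an adhesion molecule of the L1 family, rose by 2.23 ± 0.26 (limma adjusted p = 2.23e-09), and Perp, a membrane protein of desmosomes induced by p53, by 2.14 ± 0.29 (limma adjusted p = 1.57e-07). Against nodes 1 and 3 the rises of Il17f, Chl1 and Perp were 1.81, 2.13 and 2.01. For Chl1 and Perp all controls lay under 4.3, the level of the filter. These genes thus passed the filter only through the EL4 nodes, where they were high.

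Egln3, an oxygen-sensing prolyl hydroxylase that is itself induced by low oxygen, was at 6.29, 7.29, 6.60, 5.63 and 5.41 in the EL4 nodes and at 4.24, 4.16, 4.22 and 3.53 in the controls. It rose by 2.21 ± 0.40 (limma adjusted p = 0.00015), again with node 14 highest. Egln3 too passed the filter on level only through the EL4 nodes. Slc39a6, a zinc importer, Tuba8, an alpha tubulin, and Lgals1, the secreted lectin galectin 1, rose by 2.09, 2.09 and 2.10. Mt2, a metal-binding metallothionein, rose by 1.89 ± 0.52 (limma adjusted p = 0.0185). Hmmr, a hyaluronan receptor that also binds the mitotic spindle, rose by 1.98 ± 0.42. Hmmr overlapped between groups through control 4 (5.44, against 5.31 in EL4 node 17). Ccl12, a chemokine for monocytes, was called at 2.50 ± 0.67 (limma adjusted p = 0.0155) with all 4 controls. With nodes 1 and 3 it was 1.14 (adjusted p = 0.639), and the arrays labelled node 2 and node 4 were at 1.85 and 3.72, against 4.69 and 6.35 in nodes 1 and 3. Of these 15 genes only Ccl12 was not called against nodes 1 and 3, and Saa3 and Cpa3 enter that count as a description only. Egln3, Slc39a6, Tuba8, Lgals1, Mt2 and Hmmr rose by 2.02, 2.17, 2.02, 2.01, 2.31 and 2.35 against nodes 1 and 3. Against male nodes Ccl12 (0.36) and Lgals1 (1.28) were not called.

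**Figure D4:**
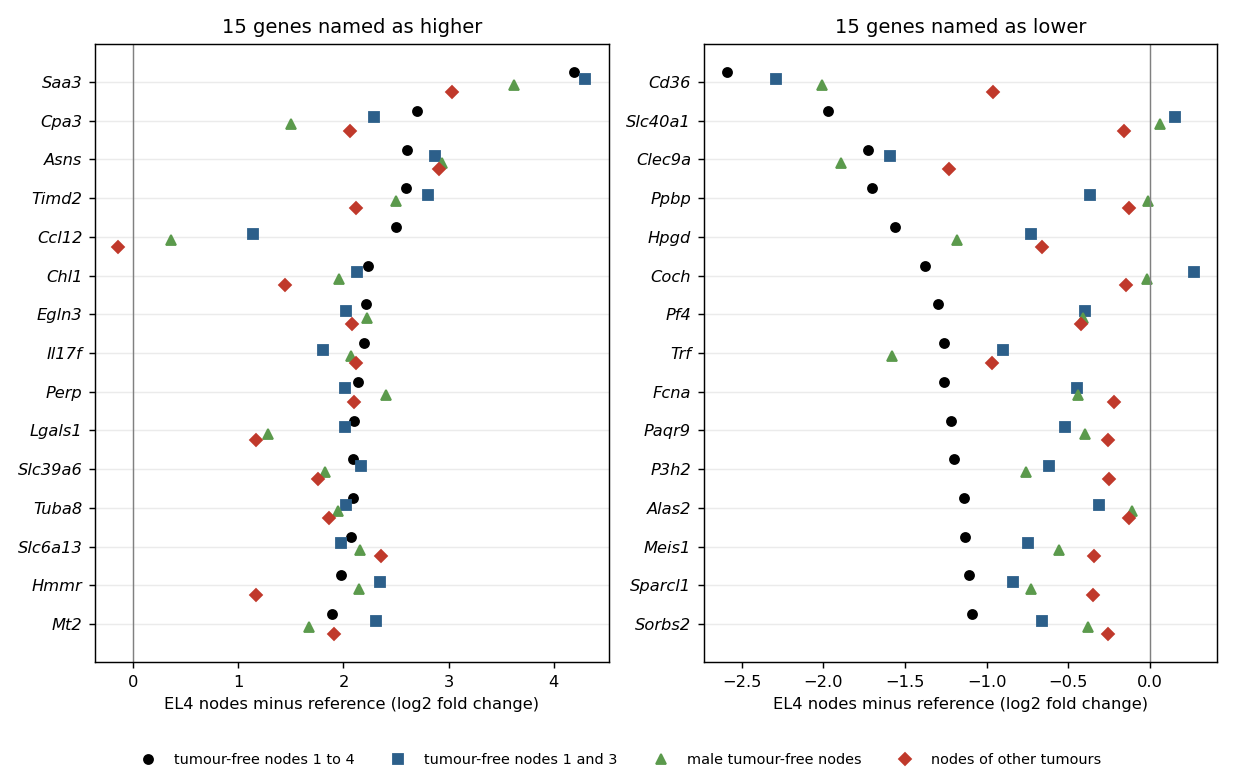
Log2 fold change of the 15 genes with the largest rise (left) and the 15 with the largest fall (right) in EL4 nodes, against tumour-free female nodes 1 to 4 (black), nodes 1 and 3 alone (blue), male tumour-free nodes (green) and nodes draining other tumours (red). Most higher genes keep changes near 2 whatever the reference, while the lower genes, such as Slc40a1 (-1.97 against 0.15), lie closer to 0 against nodes 1 and 3.

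For a contrast with no tumour-free females in it, the EL4 nodes were compared with the 37 nodes that drained other tumours, averaged over the families B16, LL2, MC38 and TC1. Of 12960 genes tested, 54 (0.417%) were higher and 1 (0.00772%) was lower in the EL4 nodes. The spread was estimated over all nodes, and a fit to the compared groups alone called 56 higher and 3 lower. The 2 comparisons share the EL4 nodes, so their values are set side by side and their overlap is not counted as support. Of the 6 line genes, 4 were called higher here, with Fggy now passing at 1.45 ± 0.22 (limma adjusted p = 4.11e-06). Slc6a13 changed by 2.36 ± 0.13, Timd2 by 2.12 ± 0.23 and Il17f by 2.12 ± 0.19. Asns, with 2.91 ± 0.40, stood above each of these. The 10 largest rises also took in Spa17, a protein of sperm that binds a kinase anchor, and Trap1a, which encodes a tumour rejection antigen otherwise found in testis and placenta. Trap1a was at 5.14, 5.78, 4.42, 4.84 and 4.15 in the EL4 nodes, 2.55 to 3.52 in tumour-free nodes 1 to 4 and 6.01 to 6.81 in EL4 tumours. It rose by 1.91 ± 0.21 over the nodes of other tumours (limma adjusted p = 1.53e-10). The highest of those 37 nodes was at 4.09, under the 4.3 of the filter, so Trap1a passed it only through the EL4 nodes. All 54 higher genes were at least 1 higher in EL4 tumours than in the tumour-free nodes of other strains or sex (7.52% of all tested genes). Without EL4 node 14 the count of called genes was 26, and without node 17 it was 87.

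Genes of amino acid supply parted in the EL4 nodes. When amino acids run short, the transcription factor ATF4 is translated and switches on enzymes that make serine and asparagine, amino acid transporters, and further regulators. Of 10 genes of this response, 5 were called higher with all 4 controls and with nodes 1 and 3 (Asns, Psat1, Phgdh, Shmt2 and Atf4), and 3 against male nodes and against nodes of other tumours (Asns, Psat1 and Phgdh). Over all tested genes 1.16%, 1.22%, 1.28% and 0.417% were called higher in these comparisons. The list's median change was 0.60 (0.81 with nodes 1 and 3), against 0.05 for all genes. Those called make asparagine or serine and glycine, beside Atf4 itself. Chac1, Trib3, Ddit3, Slc7a11 and Sesn2, which degrade glutathione, restrain signalling, promote cell death, import cystine and restrain growth, differed by -0.15 to 0.11 and were not called.

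The promoters of 3 of these genes are shown because members of the list parted in their response. Each is the 300-base window around the start of transcription from RefSeq (GRCm38.p6), written 5′ to 3′ on the strand of the gene. Capitals mark the letters TGATGNAA on either strand, the composite element that ATF4 and its partners of the C/EBP family bind in genes of amino acid shortage. Asns lies on the minus strand at chr6:7693160-7693459, Slc7a11 on the minus strand at chr3:50443564-50443863, and Psat1 on the minus strand at chr19:15925010-15925309.
Asns: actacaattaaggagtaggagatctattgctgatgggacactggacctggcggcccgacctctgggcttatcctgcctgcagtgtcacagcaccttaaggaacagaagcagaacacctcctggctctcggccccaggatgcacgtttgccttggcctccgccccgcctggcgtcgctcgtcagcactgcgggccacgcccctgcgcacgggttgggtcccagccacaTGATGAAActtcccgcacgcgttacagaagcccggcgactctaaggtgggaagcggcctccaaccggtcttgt
Slc7a11: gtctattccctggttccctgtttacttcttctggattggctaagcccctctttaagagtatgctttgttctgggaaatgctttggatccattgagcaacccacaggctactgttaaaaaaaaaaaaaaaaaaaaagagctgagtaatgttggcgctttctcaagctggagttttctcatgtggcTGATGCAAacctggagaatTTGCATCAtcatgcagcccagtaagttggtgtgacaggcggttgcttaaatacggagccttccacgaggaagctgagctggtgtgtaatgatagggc
Psat1: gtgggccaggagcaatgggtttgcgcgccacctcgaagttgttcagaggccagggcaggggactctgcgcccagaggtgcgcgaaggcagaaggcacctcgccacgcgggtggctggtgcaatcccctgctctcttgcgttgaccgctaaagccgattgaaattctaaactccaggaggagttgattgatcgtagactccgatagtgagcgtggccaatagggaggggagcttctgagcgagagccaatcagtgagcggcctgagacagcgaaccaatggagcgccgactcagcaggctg
The Asns window holds the motif once, at position -23 from the start, counted from its first base, and the Slc7a11 window holds it at positions -66 and -47. Neither of the 2 windows of Psat1 in the table, the one shown included, holds it. All 10 genes of the list were found in the table, and 4 of them hold the letters (Asns, Chac1, Trib3 and Slc7a11), as do 3.97% of all 32851 windows. Of the 5 genes called higher, only Asns holds them. A match describes letters in a window and no more.

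Asns encodes asparagine synthetase. It was at 7.76, 8.79, 7.94, 6.57 and 6.73 in EL4 nodes 13, 14, 15, 17 and 18 and at 4.55, 4.76, 4.81 and 5.69 in tumour-free nodes 1 to 4. All EL4 nodes were above all controls, as for 6.44% of all tested genes. Node 14 was highest and nodes 17 and 18 lowest, as for the line genes. The change was 2.60 ± 0.55 (limma adjusted p = 0.00148), and 2.87 against nodes 1 and 3. Unlike the line genes, Asns was also high in the EL4 spleens (6.59 to 7.38, against 4.12 to 5.36 in the tumour-free spleens), and the effects in node and spleen differed by 0.20 ± 0.49 (limma adjusted p = 0.86), or by 0.59 without the 4 arrays (adjusted p = 0.682). In EL4 tumours it was at 9.36 to 9.65 and in culture at 10.07.

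Psat1, the aminotransferase of serine synthesis, was at 7.08, 7.97, 6.75, 6.29 and 6.59 in the EL4 nodes and at 5.15 to 5.46 in the controls, and rose by 1.64 ± 0.34 (limma adjusted p = 0.00103). Phgdh, the first enzyme of that pathway, rose by 1.40 ± 0.26 (limma adjusted p = 0.00015), from 3.94 to 4.89 in the controls to 5.60 to 6.55. Shmt2, which turns serine into glycine in mitochondria, rose by 1.17 ± 0.25. Atf4 rose by 1.09 ± 0.28 (limma adjusted p = 0.0124) but by 0.18 against male nodes, where it was not called. Against nodes 1 and 3 Psat1, Phgdh, Shmt2 and Atf4 rose by 1.78, 1.67, 1.35 and 1.31. Psat1 was at 5.50 to 5.80 in the EL4 spleens and at 4.98 to 5.64 in the tumour-free spleens. Its effect in the node was larger than in the spleen by 1.34 ± 0.31 (limma adjusted p = 0.0108), and by 1.42 without the 4 arrays that went against their organ (adjusted p = 0.0795). All 5 higher genes were above the EL4 nodes in culture.

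Of the 18 measured genes of the cell cycle, 8 were called higher and 10 were not. All 18 had changes above 0, with a median of 1.00 (1.28 with nodes 1 and 3). The median over all tested genes was 0.05 (0.07 with nodes 1 and 3), and the share of all genes above 0 is not given. Those called were Top2a, Cdk1, Birc5, Cdc20, Bub1, Ccnb2, Plk1 and Mcm3. Against nodes 1 and 3 the count was 11, against male nodes 10, and against nodes of other tumours 0, with a median change of 0.60 there. Over all tested genes 1.16% were called higher with all 4 controls, and 1.22%, 1.28% and 0.417% in these 3 comparisons. In the last, 1588 of 12960 genes passed an unadjusted p under 0.05. There Top2a, Cdk1, Birc5, Cdc20, Bub1, Plk1 and Mcm3 had a limma adjusted p under 0.05. Their changes of 0.77 to 0.98 were under the fold threshold, which alone kept them from a call. Ccnb2 passed neither limit (0.75, limma adjusted p = 0.0873). Top2a, which untangles DNA before division, was at 8.37, 9.24, 8.67, 7.94 and 8.10 in the EL4 nodes and at 6.05, 6.96, 6.64 and 7.85 in the controls. Node 14 was highest and node 17 lowest, just above control 4, and the change was 1.59 ± 0.38 (limma adjusted p = 0.00664). Cdk1, the kinase that starts mitosis, rose by 1.53 ± 0.34, and Mcm3, a part of the replication helicase, by 1.08 ± 0.22. Against nodes 1 and 3 Top2a, Cdk1 and Mcm3 rose by 2.12, 1.72 and 1.30, and Ccnb2 was not called there (1.37, limma adjusted p = 0.0651). Mki67, the usual marker of dividing cells, was at 8.99 to 10.26 against 7.46 to 10.17 and was not called with all 4 controls (1.06 ± 0.36, limma adjusted p = 0.081). Control 4 alone was above 9 there, and against nodes 1 and 3 the change was 1.79 (limma adjusted p = 0.0091). For Cdk1 the tumours were at 7.09 to 7.62 and the culture at 9.63, against 6.19 to 7.31 in the EL4 nodes, so tumours and nodes overlapped. Top2a was also high in the EL4 spleens (8.88 to 9.58). Whether dividing cells in the nodes were lymphoma or host cells was not tested.

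**Figure D5:**
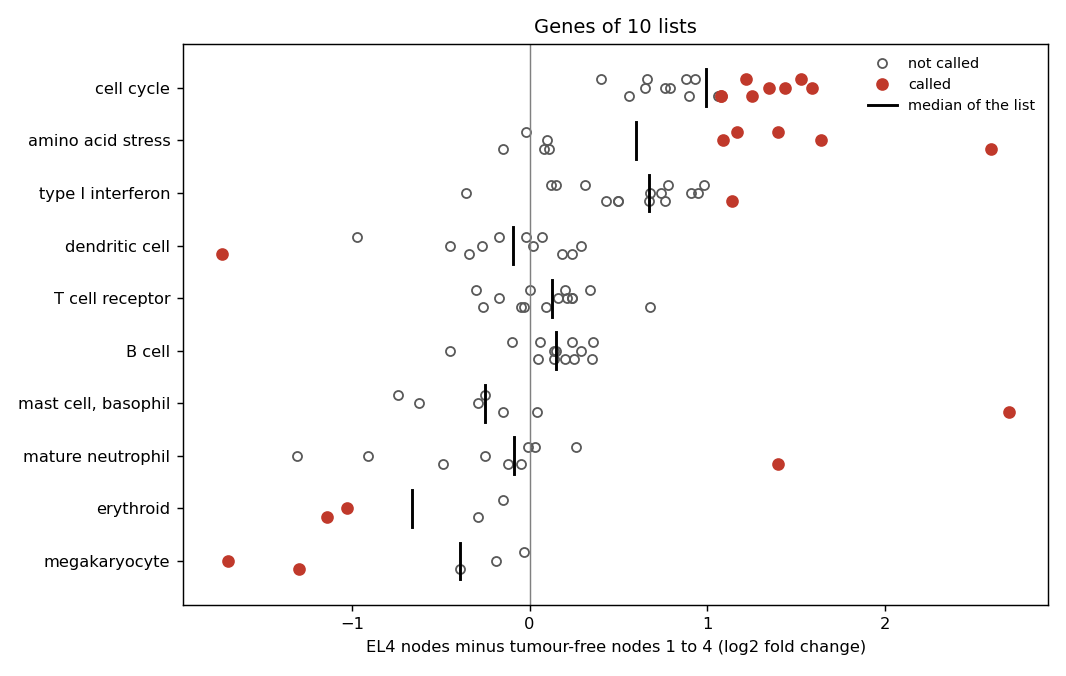
Log2 fold change of each tested gene of 10 lists in EL4 nodes against tumour-free nodes 1 to 4; filled points are called, open points are not, and the bar is the median of the list. Cell cycle genes (median 1.00) and 5 of the amino acid genes lie to the right, T and B cell genes lie around 0, and Cpa3 stands alone in the mast cell list at 2.70.

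Of the 35 gene lists examined, 21 held no called gene, and these included the lists of the T cell receptor and of B cells. None of the 14 T cell receptor and signalling genes and none of the 13 B cell genes was called, with median changes of 0.12 and 0.15. Over all tested genes 1.16% were called higher and 0.184% lower, so few calls would fall on lists of this size. The sign of the T cell median depended on the controls: it was -0.23 with nodes 1 and 3 (3 of 14 genes above 0) and -0.24 with male nodes. The B cell median was 0.37 and 0.13 with these controls, and -0.15 against nodes of other tumours. At an unadjusted p under 0.05, 1835 of the 11981 tested genes passed in all. Cd3d and Cd3e, parts of the T cell receptor complex, were at 8.84 to 9.30 and 8.63 to 9.12 in the EL4 nodes and at 7.90 to 8.72 and 7.34 to 9.56 in the controls. All 5 EL4 nodes were thus above all 4 controls for Cd3d (0.68 ± 0.69, limma adjusted p = 0.759), as for 6.44% of all tested genes, and not for Cd3e. The error was estimated over all nodes and was wide for such genes. For Cd3d the SD was 0.21 in the EL4 nodes and 0.38 in the controls. The lack of a call in these lists therefore does not show equal levels. The EL4 culture itself was at 10.48 and 9.52. Cd8a, a coreceptor that was low in EL4 culture (4.18), was at 7.09 to 7.51 against 7.06 to 7.98. Cd79a, a part of the B cell receptor, was at 9.31, 8.68, 9.27, 9.24 and 9.21 in EL4 nodes 13, 14, 15, 17 and 18, lowest in node 14, and at 8.58 to 9.37 in the controls.

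Single genes of other immune lists were called, where 1.16% of all tested genes were called higher with all 4 controls. Gzmb, the granule protease of killer lymphocytes, was at 6.55, 5.29, 5.64, 6.16 and 6.08 in the EL4 nodes and at 3.78, 4.33, 4.50 and 4.48 in the controls. The groups were separate, as for 6.44% of all tested genes. Node 14 was the lowest of the EL4 nodes and the culture was at 2.71, so Gzmb did not follow the order of the line genes. It rose by 1.67 ± 0.41 (limma adjusted p = 0.00691), and by 1.81 against nodes 1 and 3. It was 1 of 13 cytotoxic genes called, and was called against nodes of other tumours (1.12) and not against male nodes (1.19). Pdcd1, the checkpoint receptor PD-1, rose by 1.25 ± 0.22 with all 4 controls and was not called against nodes 1 and 3 (0.90, limma adjusted p = 0.0588). It was at 7.70 in culture. Clec4e, a receptor of myeloid cells for mycobacterial glycolipid, rose by 1.40 ± 0.32, was at 6.05 in culture, and was the only one of 10 mature neutrophil genes called. Against nodes 1 and 3 it was not called (1.34, limma adjusted p = 0.061). Mybl1, a transcription factor of germinal centre cells, rose by 1.49 ± 0.41, and by 1.83 against nodes 1 and 3, but differed by -0.29 from the nodes of other tumours and was not called there. With all 4 controls, Clec4e and Mybl1 passed the filter on level only through the EL4 nodes.

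Of 16 genes of the type I interferon response, 1 was called, where 1.16% of all tested genes were called higher. Changes were above 0 for 15 of them, with a median of 0.68, and for all 16 with nodes 1 and 3, with a median of 0.75. The medians over all tested genes were 0.05 and 0.07, and the share of all genes above 0 is not given. Rsad2, an antiviral enzyme, was the exception with all 4 controls (-0.36). The called gene was Zbp1, a sensor of nucleic acids, at 8.19, 8.02, 8.11, 8.39 and 8.07 in the EL4 nodes and 7.15, 7.27, 6.67 and 6.98 in the controls. The groups were separate, as for 6.44% of all tested genes, and the EL4 nodes close together (1.14 ± 0.29, limma adjusted p = 0.0093). Zbp1 was lower in EL4 tumours (5.23 to 6.95) and culture (4.85) than in the nodes. Irf7, the factor that amplifies interferon production, was at 6.66 to 6.92 against 5.75 to 6.13, and its change of 0.78 ± 0.24 was under 1 (0.89 with nodes 1 and 3). Against male nodes and nodes of other tumours the list's median was 0.51 and 0.46, and no member was called.

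Among the lower genes, Clec9a stood apart. It encodes a receptor for dead cells on the dendritic cells that present antigen to CD8 T cells. Clec9a was at 5.63, 5.23, 5.01, 5.08 and 5.46 in the EL4 nodes and at 6.39, 6.69, 7.34 and 7.64 in tumour-free nodes 1 to 4. All EL4 nodes were below all of these controls, as for 1.45% of all tested genes, and the change was -1.73 ± 0.33 (limma adjusted p = 0.000255). It was -1.59 against nodes 1 and 3, -1.89 against male nodes and -1.23 ± 0.24 against nodes of other tumours (limma adjusted p = 0.000406), and it was called in each. Tumour-free node 5, left out for its fat, was at 5.21. In the EL4 spleens Clec9a was at 6.19 to 6.74 and in the tumour-free spleens at 6.17 to 7.33. Xcr1, a chemokine receptor of the same dendritic cells, was at 4.47 to 5.40 against 5.70 to 6.58 (-0.97 ± 0.29, limma adjusted p = 0.0346), just under the fold threshold. It was -1.15 against nodes 1 and 3 (adjusted p = 0.0734) and -1.02 and called against male nodes. The other 10 dendritic cell genes tested were not called, and the list's median was -0.09, or -0.36 with nodes 1 and 3.

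Cd36, a fatty acid receptor of fat cells, macrophages and endothelium, was at 5.34 to 6.46 in the EL4 nodes and at 7.92 to 8.66 in tumour-free nodes 1 to 4 (-2.59 ± 0.63, limma adjusted p = 0.00763). Its change against nodes 1 and 3 was -2.29 and was not called (limma adjusted p = 0.125), and against male nodes it was -2.01 and called. Against nodes of other tumours Cd36 changed by -0.96 and was not called (limma adjusted p = 0.374). The means of those families were 6.57 to 6.88, against 5.71 in the EL4 nodes and 8.30 in tumour-free nodes 1 to 4. Cd36 was at 10.19 in the fat-rich node 5. The mean of the adipocyte genes was 4.55 to 5.46 in the EL4 nodes and 4.75 to 6.25 in the controls, and their part in this result was not tested.

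The remaining lower genes among the 15, all but Trf, had their highest control values in the arrays labelled tumour-free node 2 and node 4. Slc40a1, the iron exporter of spleen macrophages, was at 3.94, 8.56, 4.95 and 8.82 in tumour-free nodes 1 to 4 and at 4.35 to 4.99 in the EL4 nodes. Its change of -1.97 with all 4 controls became 0.15 with nodes 1 and 3. The platelet chemokines Ppbp and Pf4 changed by -1.70 and -1.30, and by -0.37 and -0.40 with nodes 1 and 3. Coch, an extracellular matrix protein, went from -1.38 to 0.27, and Alas2, the first enzyme of haem synthesis in red cell precursors, from -1.14 to -0.31. Hpgd, Trf, Fcna, Paqr9, P3h2, Meis1, Sparcl1 and Sorbs2 fell by 1.56 to 1.09 with all 4 controls and none was called with nodes 1 and 3. Hpgd, an enzyme that inactivates prostaglandins, and Trf, the iron carrier transferrin, were called lower against male nodes (-1.18 and -1.58). The 2 erythroid genes (Alas2 and Slc4a1) and 2 megakaryocyte genes (Ppbp and Pf4) called lower were thus not called with nodes 1 and 3. Slc40a1, Ppbp, Coch, Fcna, Alas2 and Slc4a1 are among the spleen genes of the organ score.

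The effect of the tumour in the node was then compared with its effect in the spleen of the same mice. The 2 effects differed for 480 of 12556 genes, of which 143 (1.14%) were relatively higher in the node and 337 (2.68%) relatively lower. Without the 4 arrays that went against their organ, 60 (0.483%) were relatively higher and 189 (1.52%) relatively lower, of which 37 and 159 were the same genes. Timd2 was higher in the node effect by 2.75 ± 0.51 (limma adjusted p = 0.00165), and by 2.93 without the 4 arrays. Egln3, Il17f and Lgals1 also kept their call without them, at 2.05, 1.78 and 1.70. Ccl12, Ccl8, Chl1, Tox and Cpa3 were not called without them, with 1.18, 1.36, 1.92, 1.26 and 1.55. Timd2 and Chl1 passed the filter on level here only through the EL4 nodes. Cpa3 marked the comparison and is given as a description. The 10 relatively lowest genes took in neutrophil and red cell genes, such as Slc4a1, the anion exchanger of red cells (mean 10.03 in EL4 spleens and 5.56 in the tumour-free spleens). In the EL4 nodes Slc4a1 lay at 4.50 to 4.80 and in tumour-free nodes 1 to 4 at 4.48 to 7.22. The difference between the effects was -5.50 ± 0.77 with all arrays (limma adjusted p = 0.000133) and -3.68 without the 4 arrays.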

How the data were processed

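RNA of whole lymph nodes, tumours, spleens and cultured cells was amplified, carried a biotin label and was measured on exon arrays for mouse. A single log2 table was deposited by the authors, holding 17831 probe sets on 283 arrays, and the submitters' processing notes name RMA. Which version was run, on which arrays jointly, and on which build, is not given in the sources used here. RMA equalises intensity distributions and compresses weak signals. All columns were mapped to samples by their titles.

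Probe sets with 1 gene symbol in the platform annotation were used (15620; 1370 named several and 841 none). Where a gene had several, that with the highest mean was kept, leaving 15224 genes. Testing required that 4 or more of the compared arrays exceed 4.3 (percentile 25 of the table). Models were fitted with limma 3.58.1 (lmFit, eBayes) in R 4.3.3. The first comparisons used 1 fit to 91 nodes, and the node and spleen effects a fit to those groups. Tests were two-sided, and p-values were adjusted by Benjamini-Hochberg over all genes tested. Errors given as ± are standard errors unless SD is written. In the first comparisons the p-values rest on the spread within groups over all 91 nodes, not over the compared mice alone. For Slc40a1 tumour-free nodes 1 to 4 had an SD of 2.49, yet the error of the change was 0.48. The few arrays limit the precision. The procedure was tested on simulated data. Python 3.11.15, numpy 2.4.6, pandas 2.3.3 and matplotlib 3.10.9 made tables and figures.

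The members of the comparison, Saa3 and Cpa3, the gene lists (35 lists, 434 genes, 348 measured) and the tests were chosen with earlier results of these data known. The text names the 15 largest called rises and falls of the first comparison, the 10 largest of the others, members of the lists, EL4 line genes, Saa3 and Cpa3. Predicted genes were counted only. Node and spleen came from the same mouse per the labels, so the animal was used as a replicate block in an alternative. Deviations of node and spleen from their group means correlated at 0.01 to 0.18 in EL4 mice and -0.08 to 0.31 in tumour-free mice. Alternatives changed the filter, the scaling, the probe set rule, the variance model, the fold threshold, the controls and the arrays left out. Those without arrays that went against their organ, and with male controls, were chosen after seeing the data.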

Additional observations from a re-analysis of the deposited data

Results flagged for a closer look

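Within a group of 4 or 5 arrays, 1 array stood far from the rest in 17 of 253 groups checked, which were 3 groups for each of 84 genes and the percent of the tumour level in the nodes. Chance gives about 1 in 20. Among tumour-free nodes, array 3 was apart for Cpa3 (4.64, the others 3.15 to 3.39), Phgdh (3.94, the others 4.77 to 4.89) and Irf7 (5.75, the others 6.07 to 6.13), array 4 for Egln3 (3.53, the others 4.16 to 4.24) and array 2 for Atf4 (6.49, the others 5.59 to 5.70).

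Among the EL4 nodes, node 14 was low for Cd79a (8.68, the others 9.21 to 9.31), node 18 high for Ppbp (4.68), node 15 low for Meis1 (4.19), node 17 high for Trib3 (5.95) and node 13 low for Tpsb2 (4.58). Among the EL4 tumours, tumour 13 was low for Slc6a13 (7.87) and Ccnb2 (7.59), tumour 17 low for Ppbp (5.59), tumour 14 low for Cma1 (4.49), and tumour 18 low for Hpgd (2.99) and high for Meis1 (5.15) and Cd79a (5.49).

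The effect in the node and the effect in the spleen differed, by the interaction test, for 480 genes. Relatively higher in the node were Ccl12 (3.51), Timd2 (2.75), Egln3 (2.36), Chl1 (2.24), Ccl8 (2.24), Il17f (2.11), Lgals1 (2.03) and Tox (2.02). Saa3 (3.48) and Cpa3 (2.37) were among them too. They had been selected on the node difference that enters this test, so their values are a description. Relatively lower were Tspan8 (-5.88), the neutrophil genes Ngp (-5.79), S100a8 (-5.57) and S100a9 (-5.52), and the red cell genes Hemgn (-5.54), Slc4a1 (-5.50), Rhag (-5.08), Alas2 (-4.91), Car2 (-4.89) and Kel (-4.80). Of the relatively lower genes, Car2 alone lost its call without the 4 arrays that went against their organ (-3.02, limma adjusted p = 0.0753).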

How the results depend on the processing

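The 161 genes called against tumour-free nodes 1 to 4 became 508 with no minimum fold, 293 with the fat-rich node 5 kept, 555 with nodes 1, 3 and 5 (chosen after seeing the data), and 78 to 229 when single arrays were left out, lowest without EL4 node 14 and highest without EL4 node 17. The 55 genes called against nodes of other tumours became 359 with no minimum fold and 26 to 87 when single EL4 nodes were left out. The 480 genes that differed between organs became 827 with no minimum fold, 249 without the 4 arrays that went against their organ, 262 without them and with the animal as a replicate block, and 402 to 555 when single arrays were left out. The replicate block alone gave 516 genes and moved no count by more than 1.5 times. Directions turned for Slc40a1 (0.15 with nodes 1 and 3, 0.18 with nodes 1, 3 and 5, 0.06 with male nodes), Coch (0.27 and 0.32) and Slc4a1 (0.02 with nodes 1 and 3), and these genes were high in the arrays labelled nodes 2 and 4. Of all called higher genes, Rgs5 turned with nodes 1 and 3 (-0.27) and 4 turned with male nodes (Rgs5, Has2, Sfrp2 and Ccl8). Of all called lower genes, 4 and 3 turned with these controls. Quantile normalisation gave 106 higher and 35 lower genes in the first comparison, in place of 139 and 22. Of the 15 genes named as lower there, 14 lost their call under at least 1 setting (all but Clec9a), and of the 15 named as higher, 3 did (Ccl12, Lgals1 and Mt2). The median percent of the tumour level in line genes stayed between 10.0% and 18.4% under the alternatives run, against 14.0%. With 4 or 5 arrays a group, signal near the lower limit of the arrays, as for Dntt in nodes, sets no level.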

Other observations

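In the organ check, 1 further array outside the comparison went against its label. The array labelled spleen 9 of the tumour-free BALB/c females scored -0.88, in the range of nodes, and it was not used here.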
